A study of Homo sapiens with 6 samples.

Results

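The antiviral genes described here are interferon-stimulated genes outside the IFIT and PARP families, examined in HCT116 cells, an established human colon carcinoma line. A list of 39 genes was matched to probe sets that carry exactly 1 gene symbol, and 36 genes were found, each on 1 probe set, among 19458 probe sets in all. IFITM2, IFITM3 and USP18 had no such probe set and were not analysed here. The comparison was between wild-type HCT116 cells and HCT116 cells homozygous for BRCA2 knockout, made by targeting the alleles of the gene one after the other, with 3 arrays for each genotype. The wild-type line came from a cell repository, and the labels speak of BRCA2-deficient lines without saying which was hybridised. The labels call the arrays technical replicates, so the p-values measure only the spread between arrays. The lines may differ in more than BRCA2, and such a difference cannot be told apart from its loss.

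Type I interferon binds a receptor on the cell surface and activates a transcription factor complex that contains IRF9 and binds a short DNA element in the promoters of antiviral genes. The products act at each step of a viral infection. IFITM proteins hinder fusion of virus with the cell membrane, the OAS enzymes and PKR sense double-stranded RNA, and restriction factors such as MX1 and tetherin block assembly, transport or release. ISG15 is a ubiquitin-like protein that is attached to other proteins by its own set of conjugating enzymes. PML bodies are nuclear structures that hold PML and SP100 and repress incoming viral genomes. The title of the series names interferon-related genes, and the comparison asks whether the antiviral genes differed with the BRCA2 genotype.

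The deposited values are log2 probe set values, in which a difference of 1 is a doubling. Array medians over all probe sets lay between 7.36 and 7.80, and wild-type array 1 (7.71) and knockout array 2 (7.80) were the highest. These 2 arrays also deviated from their own genotype in the same direction (r = 0.49, a correlation across probe sets, which do not count as independent replicates). No probe set carried the symbol BRCA2, so the genotype labels were not checked against the targeted gene. The epithelial genes EPCAM, KRT8 and KRT18 had means between 9.88 and 13.01 in both genotypes. Others on that list were lower, with VIL1 at means of 5.58 in wild type and 5.82 in knockout, and CDX2 at 7.73 and 8.20. All 8 epithelial markers measured were higher in the knockout (median difference 0.51), from 0.24 in EPCAM to 1.15 in CDH1. The CDH1 arrays did not overlap between genotypes (difference 1.15 ± 0.24, limma adjusted p = 0.127). The mean over 6 leukocyte markers was between 5.00 and 5.93 on the wild-type arrays and between 5.42 and 6.29 on the knockout arrays. Among them CD3E had means of 6.73 in wild type and 7.46 in knockout, above VIL1. None of the 6 leukocyte markers had an unadjusted p under 0.05 in limma, and 5 of the 6 had a positive difference (from -0.57 in CD3D to 1.08 in CD2). Of 8 stromal markers 7 had a positive difference, and COL1A1, a collagen gene, was at 1.10 ± 0.26 (limma adjusted p = 0.159). The part of these markers in the results below was not tested.

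The listed genes were chosen with earlier results of these data known, so their shares below are descriptions and do not test the list. Of the 36 antiviral genes, 25 had a higher mean in the knockout and 11 a lower one, where 51.3% of all probe sets were higher. The median difference, knockout minus wild type, was 0.35, against 0.02 over all probe sets. The marker lists had medians as high, at 0.36 for stromal, 0.47 for leukocyte and 0.51 for epithelial markers. IFI44 was the only member to pass an adjusted p of 0.05 in limma, and it rose. For all probe sets the share that passed as higher was 0.416%, as lower 0.154%, and in either direction 0.57%. With an unadjusted p under 0.05 there were 9 members, all higher, or 25% of the members, beside 6.92% of all probe sets higher and 5.28% lower. These 9 were IFI44, OASL, TRIM22, IFI27, BST2, SAMD9, ISG15, IFI6 and PLSCR1. After median centring of the arrays the split was 8 higher and 2 lower, and after quantile normalization it was 9 higher and 1 lower. It was 12 higher and 4 lower with array weights, 9 and 2 with a variance trend, and 8 and 4 without knockout array 2, where the 4 lower were OAS3, PML, SP100 and HERC5 both with array weights and without that array. The share of all probe sets higher at that p moved as well, to 13.01% with array weights. It was 6.01% after median centring, 6.74% after quantile normalization, 7.04% with a variance trend and 6.39% without knockout array 2. The shares lower in these settings are not given here. For 11 members every knockout array was above every wild-type array, namely the same 9 with DHX58 and XAF1, and no member showed the reverse. That is 30.6% of the members, beside 12.0% of all probe sets with such a separation as higher and 7.7% as lower, or 19.7% in all. Such a separation as higher was also seen for 5 of 8 epithelial markers (62.5%). It was seen for 1 of 8 stromal markers (12.5%) and for 0 of 6 leukocyte markers.

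**Figure D1:**
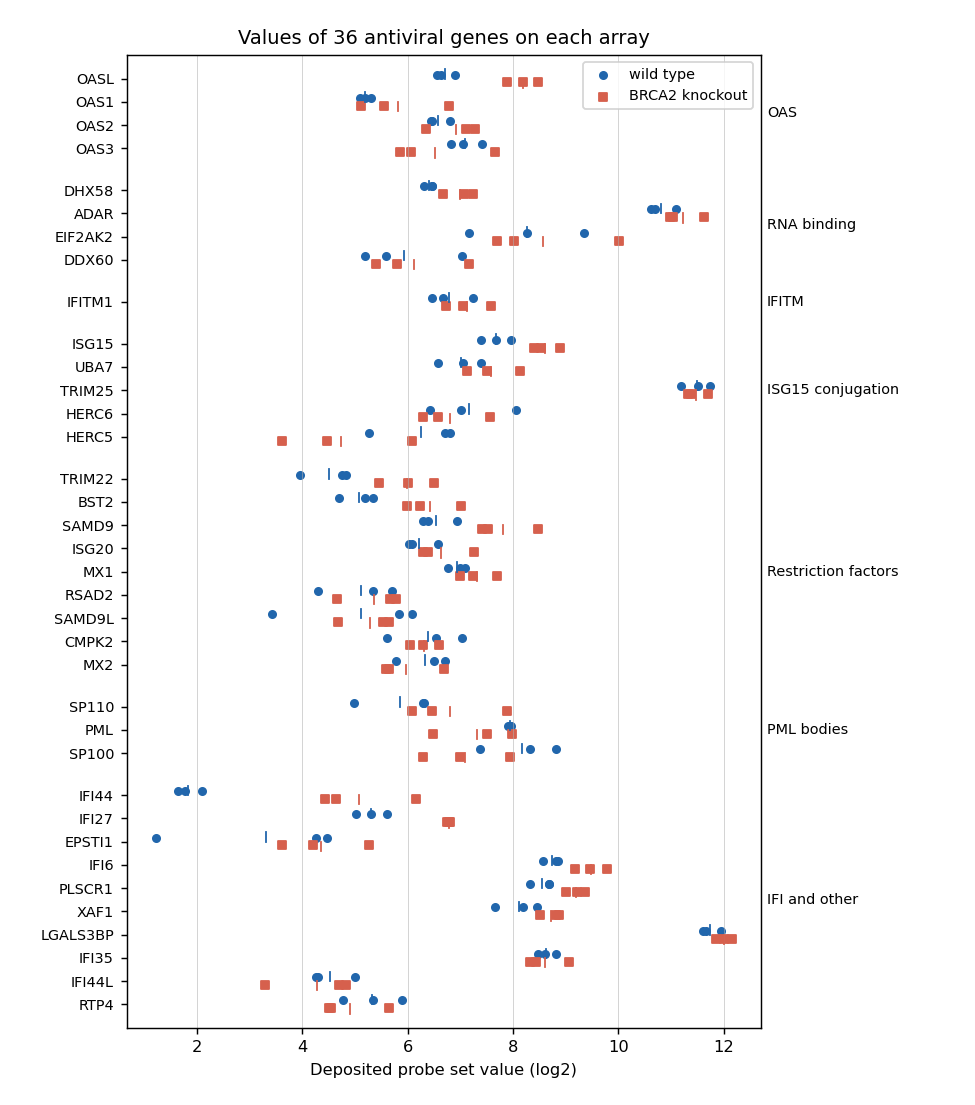
Deposited log2 values of the 36 genes on each of the 3 wild-type arrays (circles) and 3 BRCA2 knockout arrays (squares), with short vertical lines at the means, grouped by function. IFI44 has the widest gap between genotypes, from 2.09 on the highest wild-type array to 4.42 on the lowest knockout array.

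IFI44 encodes a cytoplasmic protein that is strongly induced by type I interferon. Wild-type arrays 1 to 3 gave 1.77, 1.65 and 2.09, and the knockout arrays, in the same order here and below, gave 4.64, 6.16 and 4.42. All knockout values lay above all wild-type values, and knockout array 2 stood above the other two. The means were 1.83 ± 0.23 and 5.07 ± 0.94 (SD, n = 3), a rise of 3.24 ± 0.48 (SE, limma adjusted p = 0.0459), or 9.45-fold. The wild-type values sat at the bottom of the scale, where the size of a difference is poorly determined. With values under 4 set to 4 the difference was 1.07 and lost its call (adjusted p = 0.38), as it did after quantile normalization, where it was 4.30 (adjusted p = 0.0979). With an unchanged difference the call was lost with a variance trend (adjusted p = 0.111), the one-way test without moderation (0.143) and the replicate block (0.286). The call was also lost without any 1 array other than knockout array 2 (adjusted p from 0.118 to 0.179), while the difference stayed between 2.70 and 3.56 over all 6 omissions. Over all alternatives it ran from 1.07 to 4.30.

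The interferon-stimulated response element has a core that can be written GAAANNGAAA, and this motif was searched on both strands of RefSeq promoter sequences of the build GRCh38.p14, from 250 bases before to 50 after each gene's start. Of the 36 genes 29 were matched by symbol, and DHX58, MX2, OAS2, OASL, PML, TRIM22 and UBA7 were not. The motif was present for 19 of the 29 (65.5%), beside 4.38% of 27305 genes and 3.57% of 35116 windows in the table. IFI44 and its neighbour IFI44L are shown here up to the start site, since they are adjacent on chromosome 1 and had unlike values. Capitals mark every match, on the strand printed or as its reverse complement TTTCNNTTTC.
IFI44, chr1:78649539-78649788, + strand: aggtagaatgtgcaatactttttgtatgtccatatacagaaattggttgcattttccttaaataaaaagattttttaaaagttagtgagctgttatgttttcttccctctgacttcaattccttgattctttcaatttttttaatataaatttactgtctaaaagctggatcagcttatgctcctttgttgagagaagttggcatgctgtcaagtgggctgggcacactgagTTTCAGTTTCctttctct
IFI44L, chr1:78620198-78620447, + strand: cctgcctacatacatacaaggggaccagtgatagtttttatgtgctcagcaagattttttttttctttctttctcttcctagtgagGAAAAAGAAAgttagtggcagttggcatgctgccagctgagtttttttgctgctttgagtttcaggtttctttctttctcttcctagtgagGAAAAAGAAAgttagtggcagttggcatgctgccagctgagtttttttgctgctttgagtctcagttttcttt

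The IFI44 window holds 1 match, which begins 18 bases before the start, and the IFI44L window holds 2, the nearer one 73 bases before it. All 7 promoters available for the 9 members with an unadjusted p under 0.05 held the motif, and so did 12 of the other 22. The stretches around the match nearest the start are printed for 6 of these 7, in order of their difference, with overlapping or close matches kept together.
IFI27, chr14:94110616-94110662, + strand: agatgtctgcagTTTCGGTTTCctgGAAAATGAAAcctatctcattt
BST2, chr19:17405733-17405772, - strand: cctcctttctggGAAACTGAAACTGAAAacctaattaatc
SAMD9, chr7:93118094-93118127, - strand: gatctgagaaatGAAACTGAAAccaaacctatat
ISG15, chr1:1013372-1013411, + strand: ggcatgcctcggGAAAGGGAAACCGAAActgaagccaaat
IFI6, chr1:27672264-27672297, - strand: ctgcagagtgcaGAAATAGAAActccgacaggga
PLSCR1, chr3:146544665-146544698, - strand: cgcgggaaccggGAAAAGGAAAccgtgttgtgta

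Members with a lower mean in the knockout also held the motif, in 4 of 9 matched promoters, and 3 of these are shown for comparison with the stretches above (the fourth is IFI44L).
HERC5, chr4:88457033-88457066, + strand: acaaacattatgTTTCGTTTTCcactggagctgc
OAS3, chr12:112938450-112938473, + strand: agagccgggcggGAAAACGAAAcc
RTP4, chr3:187368355-187368384, + strand: gaaccgaacaccGAAACTGAAActgtttgt
The RTP4 match has the same letters as the SAMD9 match. The median difference was 0.37 over the 19 members with the motif (15 higher, 4 lower) and 0.08 over the 10 without it (5 higher, 5 lower). Left out of this split are the 7 members without a matched promoter, which could shift both medians. They are OASL (1.48), TRIM22 (1.47), UBA7 (0.59), DHX58 (0.58), OAS2 (0.33), MX2 (-0.35) and PML (-0.62). The motif counts are descriptions of the letters in a window, and binding was not measured.

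The OAS group comprises OAS1, OAS2 and OAS3, which make oligoadenylates that activate the nuclease RNase L, and OASL, a relative that lacks this activity and enhances RNA sensing by RIG-I. OASL had the clearest difference of the 4, with 6.90, 6.56 and 6.64 on the wild-type arrays and 7.89, 8.47 and 8.19 on the knockout arrays. Its genotypes were separated by 0.99 between the nearest arrays, and the difference was 1.48 ± 0.27 (limma adjusted p = 0.0893, 2.79-fold). OASL passed the adjusted threshold in 5 alternatives, namely median centring, quantile normalization, array weights, a variance trend and removal of the dimmest probe sets (adjusted p from 0.0171 to 0.0447), and over all alternatives its adjusted p reached 0.575. OAS1 was at 5.10, 5.30 and 5.19 in wild type and at 6.79, 5.12 and 5.54 in knockout, so that the difference of 0.62 ± 0.44 came mostly from knockout array 1. OAS2 differed by 0.33 ± 0.33, with overlapping arrays. OAS3 was the only member of the group with a negative difference, -0.58 ± 0.50, and its values were 7.40, 6.83 and 7.06 in wild type against 5.85, 7.65 and 6.06 in knockout. Knockout array 2 was the highest of all 6 for OAS3 while knockout arrays 1 and 3 were the lowest.

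Among 4 further genes whose products bind viral or cellular RNA, none passed the test and all had a positive difference (median 0.37). DHX58, which encodes the RIG-I-like helicase LGP2, was at 6.31, 6.47 and 6.47 in wild type and 7.07, 6.67 and 7.25 in knockout. Its arrays did not overlap, and the difference was 0.58 ± 0.27 (limma adjusted p = 0.445). ADAR, the adenosine deaminase that edits double-stranded RNA, differed by 0.42 ± 0.30. EIF2AK2, which encodes the kinase PKR, ranged from 7.16 to 9.35 in wild type and from 7.70 to 10.01 in knockout, and its difference of 0.32 ± 0.75 was well within that spread. DDX60, a helicase gene linked to RIG-I signalling, was at 0.18 ± 0.62. EIF2AK2 and DDX60 were each highest on wild-type array 1 and knockout array 2 within their genotypes, and in both the difference changed sign without some of the arrays.

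The IFITM group was represented by IFITM1 alone, which encodes a small membrane protein that blocks virus entry. IFITM1 was at 6.67, 6.46 and 7.24 in wild type and 7.05, 6.73 and 7.59 in knockout. The arrays of the genotypes overlapped and the difference of 0.33 ± 0.34 did not pass the test (limma adjusted p = 0.735).

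**Figure D2:**
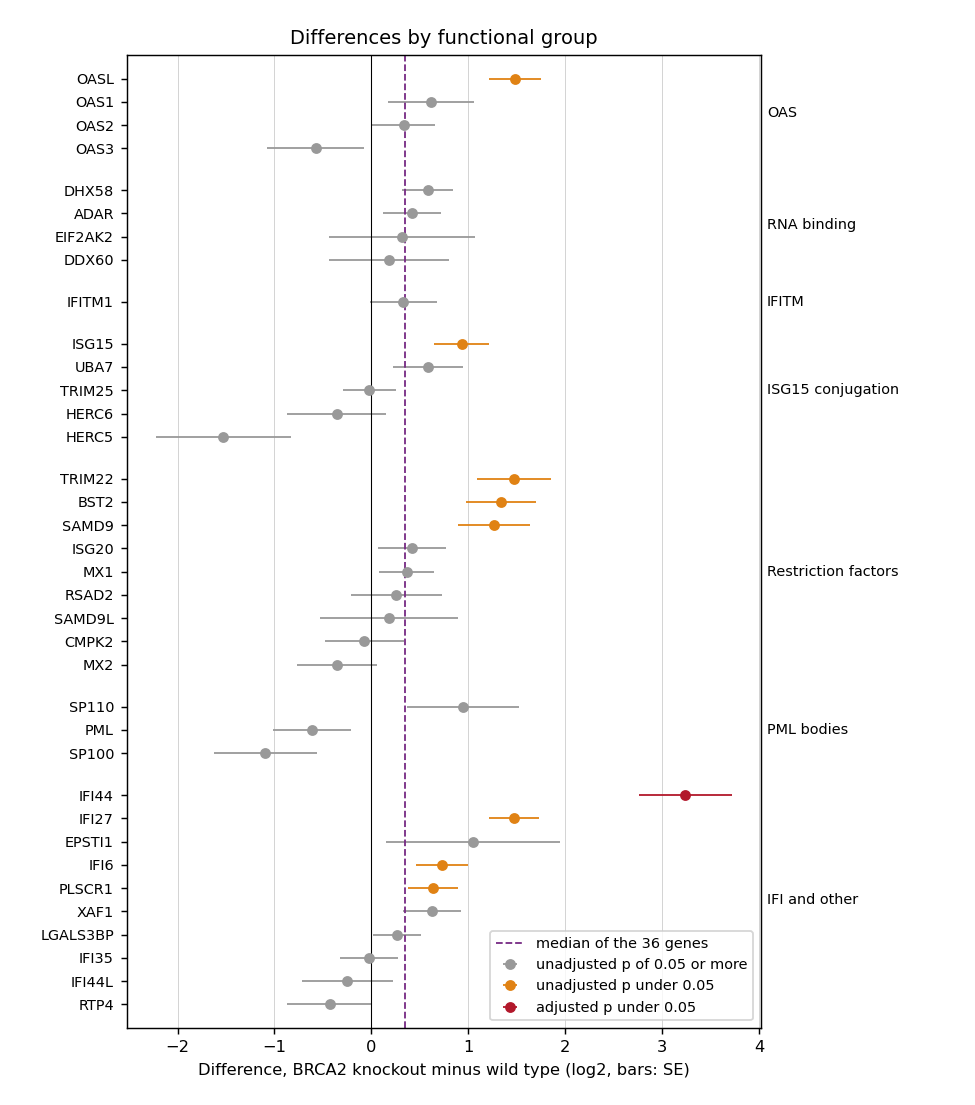
Difference of means on the log2 scale, BRCA2 knockout minus wild type, with the SE of the limma fit, for 36 genes in functional groups; colours give the p-value class and the dashed line marks the median of the 36 genes. IFI44 alone passes the adjusted threshold, and 8 further genes, all to the right of 0, have an unadjusted p under 0.05.

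The ISG15 conjugation genes did not differ in one direction. ISG15, the modifier itself, was at 7.39, 7.96 and 7.68 in wild type and 8.54, 8.40 and 8.89 in knockout, without overlap, a difference of 0.93 ± 0.28 (limma adjusted p = 0.252, unadjusted p = 0.0126). UBA7, which encodes the enzyme that activates ISG15, differed by 0.59 ± 0.36 with overlapping arrays. TRIM25, a ubiquitin and ISG15 ligase gene that also promotes RIG-I signalling, had the smallest difference of the group, -0.02 ± 0.27, at means of 11.49 and 11.46. HERC5, the main ISG15 ligase gene in human cells, was at 6.80, 5.26 and 6.72 in wild type and 3.62, 6.09 and 4.48 in knockout. Its difference of -1.53 ± 0.70 was the most negative of the 36 genes and did not pass (limma adjusted p = 0.443, unadjusted p = 0.0636). Knockout array 2 was above wild-type array 2, so the genotypes overlapped. HERC6, a close relative of HERC5, differed by -0.36 ± 0.51. Thus ISG15 and UBA7 had positive differences, and HERC5, HERC6 and TRIM25 negative ones, with TRIM25 close to 0. The signs of TRIM25 and HERC6 changed when some arrays were left out. No gene of the group passed the adjusted threshold.

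Of 9 restriction factor genes, 7 had a positive and 2 a negative difference (median 0.37), and 3 of them, TRIM22, BST2 and SAMD9, had an unadjusted p under 0.05 with no overlap between genotypes (33.3% of the group, beside 6.92% and 12.0% of all probe sets for these measures as higher). TRIM22, a tripartite motif gene whose product represses viral transcription, was at 4.76, 3.95 and 4.83 in wild type and 5.47, 6.50 and 6.01 in knockout. Its difference was 1.47 ± 0.38 (limma adjusted p = 0.195). BST2, which encodes tetherin, a protein that holds budding virions at the cell surface, was at 5.35, 4.69 and 5.19 in wild type. On the knockout arrays BST2 was at 5.99, 6.24 and 7.02, and the difference was 1.34 ± 0.36 (adjusted p = 0.207). SAMD9, a restriction factor for poxviruses, was at 6.93, 6.28 and 6.40 against 7.41, 8.48 and 7.52, a difference of 1.27 ± 0.37 (adjusted p = 0.24).

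The other restriction factor genes overlapped between genotypes and did not pass the test. ISG20, an exonuclease gene, differed by 0.42 ± 0.35, and the dynamin-like GTPase gene MX1 by 0.37 ± 0.28. RSAD2, which encodes viperin, an enzyme that makes a chain-terminating nucleotide, differed by 0.26 ± 0.47. SAMD9L, the paralogue of SAMD9, differed by 0.18 ± 0.71 and had 1 low wild-type value of 3.42. CMPK2, a mitochondrial nucleotide kinase gene, was at -0.07 ± 0.41. MX2, whose product blocks nuclear entry of retroviruses, was at -0.35 ± 0.41. MX1 and RSAD2, which are widely used as markers of an interferon response, were thus among the genes without a detectable difference on these arrays.

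For the PML body genes 2 of 3 differences were negative, and none passed. PML, the scaffold of these bodies, was at 7.96, 7.91 and 7.94 in wild type and 7.51, 7.98 and 6.47 in knockout (difference -0.62 ± 0.40). SP100, a permanent component of the bodies, was at 8.82, 7.37 and 8.33 in wild type and 6.99, 7.95 and 6.30 in knockout. The difference in SP100 was -1.09 ± 0.53 (limma adjusted p = 0.471, unadjusted p = 0.0773). SP110, a chromatin-binding relative of SP100, was at 0.95 ± 0.58, with its highest value of 7.89 on knockout array 2. With the arrays centred on their medians, SP100 and HERC5 were the 2 members lower with an unadjusted p under 0.05, and after quantile normalization it was SP100. As deposited no member was lower at that p, beside 5.28% of all probe sets. The shares of all probe sets lower in the 2 other settings are not given here, so these calls cannot be set against them.

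The remaining 10 genes have diverse or partly known functions, and 7 of them were higher and 3 lower in the knockout (median 0.63). IFI27, which encodes a mitochondrial protein strongly induced by interferon alpha, was at 5.30, 5.60 and 5.02 in wild type and 6.78, 6.75 and 6.80 in knockout. The knockout arrays nearly coincided, and the difference of 1.47 ± 0.26 had a limma adjusted p of 0.0807, which passed with array weights (adjusted p = 0.0149). IFI6, an antiviral and anti-apoptotic membrane protein gene, was at 8.57, 8.81 and 8.86 against 9.18, 9.46 and 9.78 (difference 0.73 ± 0.27, adjusted p = 0.348). PLSCR1, the phospholipid scramblase gene, was at 8.68, 8.32 and 8.68 against 9.01, 9.21 and 9.37 (difference 0.64 ± 0.26, adjusted p = 0.384). XAF1, a pro-apoptotic antagonist of the inhibitor XIAP, did not overlap between genotypes by a margin of 0.04 (difference 0.63 ± 0.30). EPSTI1 differed by 1.05 ± 0.90, which rested on a wild-type value of 1.22 on array 3, and LGALS3BP, a secreted glycoprotein gene, by 0.27 ± 0.25. The lower genes were IFI35 (-0.03 ± 0.30), IFI44L (-0.25 ± 0.47) and the chaperone gene RTP4 (-0.43 ± 0.44).

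Several members are neighbours with no other protein-coding gene between them in the RefSeq gene order, which gave 7 pairs. In 5 of the 7 the differences had opposite signs: IFI44L and IFI44, OAS1 and OAS3, OAS3 and OAS2, CMPK2 and RSAD2, and MX2 and MX1. IFI44L, CMPK2 and RSAD2 changed sign when some arrays were left out, so the opposite signs of their pairs were not stable. The other 2 pairs were HERC6 and HERC5, both negative, and SAMD9 and SAMD9L, both positive. To compare neighbours, the value of one gene minus that of its neighbour was taken on each array and compared between genotypes. The difference in IFI44 exceeded that in IFI44L by 3.49, that in MX1 exceeded that in MX2 by 0.72, and that in HERC5 was below that in HERC6 (-1.17), each with no overlap between genotypes. With values under 4 set to 4, IFI44 differed by 1.07 and IFI44L by -0.01. How often other neighbouring genes separate in this way was not examined. The exact permutation test, two-sided, gave p = 0.1 for these 3 pairs (0.233 after Benjamini-Hochberg adjustment over 7 pairs). That is the smallest p that 3 against 3 arrays allow, so the test could not pass 0.05 and does not decide whether neighbours differed unequally. The other 4 pairs overlapped (exact permutation p = 0.4).

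Members were also divided by the wild-type mean of their probe set, which is not a measure of transcript abundance between genes. Below 4 lay IFI44 and EPSTI1, with a median difference of 2.14, where all 768 probe sets of that class had a median of 0.42 and 65.9% were higher. From 4 to under 7 there were 20 members, 15 of them higher (median 0.35), and 5 (25%) had an unadjusted p under 0.05 as higher, beside 6.92% of 7184 probe sets. From 7 to under 9, 6 of 11 members were higher (median 0.32), and 3 (27.3%) had an unadjusted p under 0.05, beside 7.24% of 6780 probe sets. At 9 and above lay ADAR, LGALS3BP and TRIM25, with a median of 0.27 and no p under 0.05. The wild-type mean is part of the difference, so low genes lean upward when sorted by it. Sorted by the mean of all 6 arrays instead, the median of all probe sets below 4 was -0.35, and the medians of the members were 0.26 for 19 genes from 4 to under 7 and 0.59 for 11 genes from 7 to under 9. Across the 36 members the correlation of the difference with the wild-type mean was r = -0.39 (Spearman's rho = -0.26), and with the mean of 6 arrays it was -0.19 (rho = -0.04). The points share arrays, and IFI44 is the extreme point of the plot.

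**Figure D3:**
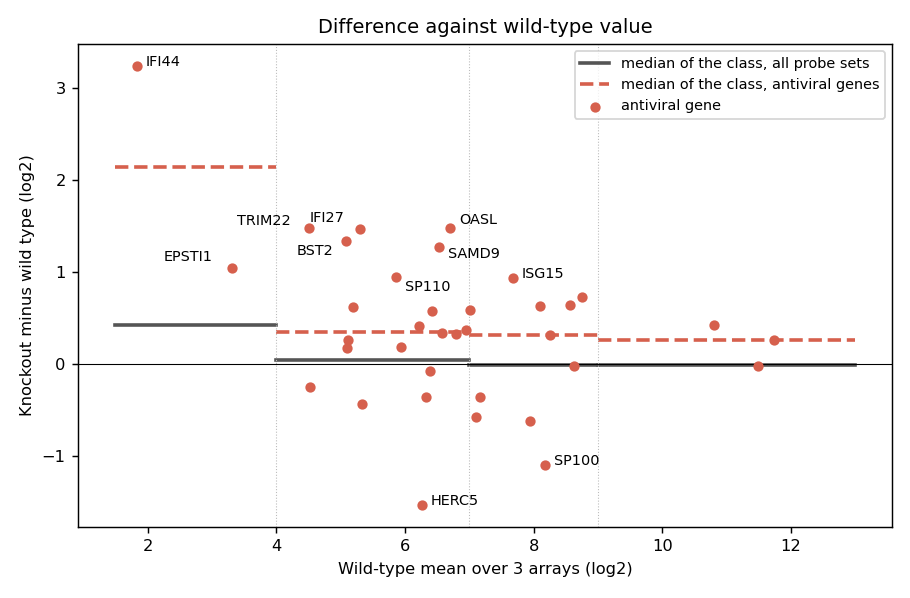
Difference, BRCA2 knockout minus wild type (log2), against the wild-type mean over 3 arrays (log2) for the 36 genes, with the class medians of these genes (dashed) and of all probe sets (solid); dotted lines mark 4, 7 and 9. Genes with differences above 1 have wild-type means below 7, and the class medians of the 36 genes lie above those of all probe sets in each class.

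Part of the list, a smaller share than of all probe sets, was highest on the same array of each genotype. For 12 members wild-type array 1 and knockout array 2 were both the highest of their genotype (33.3% of members, 39.1% of all probe sets), and for 8 members both were the lowest (15.2% of all probe sets). The 12 were ADAR, DDX60, EIF2AK2, HERC5, HERC6, OAS3, OASL, PML, SAMD9, SAMD9L, SP100 and XAF1. They include 7 of the 25 genes with a positive difference and 5 of the 11 with a negative one. EIF2AK2 was 1.64 higher on wild-type array 1 than on the other wild-type arrays and 2.15 higher on knockout array 2 than on the other knockout arrays. IFI27 deviated by -0.01 and -0.04 in the same comparisons. Without both arrays, 26 members were higher and the median difference was 0.46. No member passed the adjusted threshold in limma then, and 8 were higher with an unadjusted p under 0.05 (22.2% of members, beside 5.84% of all probe sets). These 8 were IFI44, OASL, TRIM22, IFI27, BST2, SAMD9, ISG15 and DHX58. A further 3 of the 36 were lower, a share near the 6.89% of all probe sets, namely HERC5 (-1.94), SP100 (-1.20) and OAS3 (-0.99). The differences in IFI44 (2.66), OASL (1.44), IFI27 (1.48), BST2 (1.56) and SAMD9 (1.13) kept their direction. How far the array profile accounts for the negative differences was not tested.

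**Figure D4:**
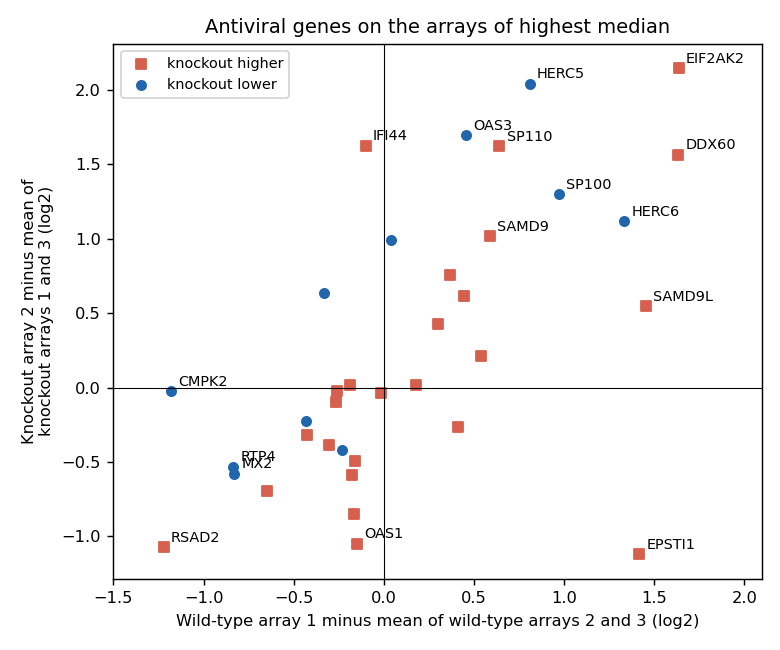
For each of the 36 genes, the deviation of wild-type array 1 from the mean of the other wild-type arrays (horizontal, log2) against the deviation of knockout array 2 from the mean of the other knockout arrays (vertical, log2); squares are genes higher and circles genes lower in the knockout. EIF2AK2, DDX60, HERC5 and SP100 lie at the upper right, and IFI27 lies near the origin.

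Of 31 listed ligands, receptors, transducers and regulators 20 had a probe set of 1 symbol, and 10 were higher and 10 lower (median -0.03). None passed the adjusted threshold in limma. With an unadjusted p under 0.05, 2 (10%) were higher, beside 6.92% of all probe sets, namely IRF9, the DNA-binding subunit of the interferon-activated complex (0.94 ± 0.28), and the transcription factor gene IRF1 (1.25 ± 0.26). Another 2 (10%) were lower, beside 5.28%, the kinase gene JAK2 (-1.64 ± 0.45) and SOCS3, a feedback inhibitor (-1.14 ± 0.43). Among 3 ligand genes measured (IFNA2, IFNE and IFNG) the largest difference was in IFNG, at -1.92 ± 0.95, with overlapping arrays, and all had wild-type means at or below 4.90. Knockout array 3 read 0.79 for IFNG, below the other arrays, which lay between 3.86 and 5.96, and with values under 4 set to 4 the difference was -0.80. Of 5 receptor genes 3 were higher, up to 0.63 in IFNAR2.

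In the IFIT family 4 of 4 measured genes were higher (median 1.40, range 0.37 to 1.79) and IFIT2 passed the adjusted threshold. PARP9, DTX3L, PARP10, PARP12 and PARP14 were all higher (median 0.87, range 0.57 to 1.20) and none passed. The 36 antiviral genes ranged from -1.53 to 3.24, and included 11 negative differences, where the IFIT and PARP genes had none. Whether the groups differ from each other was not tested.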

How the data were processed

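Total RNA was depleted of ribosomal RNA, labelled and hybridised to whole-transcript arrays, per the labels' protocols. The deposited values are log2 probe set values. The submitters' processing notes list RMA, R 2.11.1 and hg18. The steps of RMA that were run are not given in the sources used here. Array medians of the deposited values differ, and whether quantile normalization was run at an earlier step is not known.

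Names came from the platform annotation, in which 13301 probe sets had 1 symbol, 2044 several and 4113 none. Each gene was its probe set of highest mean. Values were used unfiltered. Genotypes were compared with limma 3.58.1 (lmFit, eBayes, R 4.3.3), two-sided and without a block, with Benjamini-Hochberg adjustment over 19458 probe sets. The code was tested on simulated data. Precision is limited by the number of arrays.

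The members, groups and alternatives were chosen with earlier results of these data known. Values on every array are given for members with an unadjusted p under 0.05 and for the largest difference of each group, and the largest difference of each pathway list is named. Other array values, IRF9 and SOCS3 were added after their values were seen. The alternatives were median centring, quantile normalization, a filter, a floor of 4, variance models, the design's one-way test, array weights, a replicate block, omission of arrays and other choices of probe set. RefSeq gene order and promoters are of GRCh38.p14, which is not the submitters' build.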

Additional observations from a re-analysis of the deposited data

How the results depend on the processing

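Under the alternatives, 26 of 36 members kept the sign of their difference (20 higher, 6 lower), and the 13 members followed one by one did so in every alternative in which they were tested. The others were EPSTI1, EIF2AK2, RSAD2, DDX60, SAMD9L, TRIM25, IFI35, CMPK2, IFI44L and HERC6, and neither median centring nor quantile normalization changed a sign. The number of members passing the adjusted threshold as higher was 1 as deposited, 3 with array weights, 2 after median centring, and 0 with a floor of 4, the one-way test without moderation, the replicate block, or without both arrays of highest median. With an unadjusted p under 0.05 those last 4 settings had 9, 10, 7 and 8 members higher, beside 7.51%, 8.21%, 3.37% and 5.84% of all probe sets. Omission of 1 array gave 0 to 1 members passing, 7 to 9 higher and 0 to 4 lower with an unadjusted p under 0.05, and a median difference of 0.33 to 0.51. Of all probe sets 4.23% to 6.61% were higher at that p without 1 array, and the share lower is not given here. Without the dimmest 30% of probe sets 21 members were left, 15 of them higher. Probe sets called in all were 111 as deposited, 778 with array weights, 396 with a variance trend, 184 without dim probe sets, 175 after median centring, 174 after quantile normalization, 169 with the floor, 7 without both arrays and 24 to 63 without 1 array. Deviations of arrays with the same replicate number correlated at -0.24, -0.43 and 0.06, so the numbers do not pair the arrays, and the replicate block left 3 calls in all and IFI44 at an adjusted p of 0.286. The cause of these changes was not tested. Both other ways to choose a probe set gave the same values, since each member had 1.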
